A study of Homo sapiens with 12 samples.

Results

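The mitochondrial ribosomal protein genes were taken as every gene of the deposited table whose symbol is MRPL or MRPS followed by a number, with an optional letter A to C for MRPS. The rule found 78 genes of the 16172 in the table, 49 of them MRPL and 29 MRPS. All 78 were above 0 in all 12 libraries, and all 78 passed the filter for testing, a mean of at least 1 TPM (a gene's transcripts per 1000000 transcripts of a library, so a share).

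H1299 is a line derived from human non-small-cell lung cancer. Its cells received siEIF3Gs, a mix of 2 siRNAs against EIF3G, or the control siRNA siCtrl, and were lysed after 72 h. EIF3G is an RNA-binding subunit of eIF3, the factor that helps to place the small cytosolic ribosomal subunit on mRNA. Of each lysate 10% was kept as input, and polysomes, the mRNAs that carry several ribosomes, were collected from a sucrose gradient of 10 to 50%. The 4 groups of 3 libraries were siEIF3Gs polysomal, siCtrl polysomal, siEIF3Gs input and siCtrl input, all made from oligo(dT)-selected mRNA. Whether replicates came from separate cultures is not stated in the labels. The p-values therefore rest on the spread among these libraries alone, which may be technical. The siRNAs, as the labels give them in DNA letters, are shown because they define the groups.

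siEIF3G-4: gaacaaactcaagggccagaa
siEIF3G-5: gaggtcatcaacggaaacata
siCtrl: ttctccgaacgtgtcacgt

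EIF3G itself had 143, 132 and 69.2 TPM in siEIF3Gs polysomal RNA, against 1680, 1916 and 1803 TPM in siCtrl polysomal RNA. In input RNA it had 60.7, 84.7 and 47.3 TPM after siEIF3Gs and 1158, 1092 and 878 TPM after siCtrl. It fell by 4.03 on the log2 scale in input RNA (limma, SE 0.29, adjusted p = 3.71e-05) and had a log2 difference of -4.02 in polysomal RNA (SE 0.29, adjusted p = 3.76e-05). VIM, KRT8 and KRT18, markers of the line, were present in every library. Of 14 markers of other cell types, 7 were in the table. Their sum was 6.88 to 9.17 TPM in siEIF3Gs polysomal, 4.05 to 10.4 in siCtrl polysomal, 5.91 to 9.79 in siEIF3Gs input and 3.86 to 10.6 in siCtrl input libraries. ALB, VWF, PECAM1 and COL1A1 were each at or under 0.1 TPM in every library, and most of the sum came from ACTA2 and MBP. The read depth is unknown, because TPM keep no counts. In 3 libraries the mean correlation across genes was higher with the other fraction of the same siRNA than with their own group: siEIF3Gs polysomal 3 (0.953 and 0.949), siEIF3Gs input 2 (0.958 and 0.929) and siCtrl input 1 (0.957 and 0.922). Counts of calls for the whole family are given below with and without these 3 libraries. Other counts, by class or for other lists, are with all 12 libraries unless stated.

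Mitochondria carry their own ribosome, which makes the few membrane proteins encoded in mitochondrial DNA, core parts of the respiratory chain. All proteins of this mitoribosome are encoded in the nucleus, translated by cytosolic ribosomes and imported, and they assemble with mitochondrially encoded RNA. MRPL proteins are named for the large subunit, which forms peptide bonds, and MRPS proteins for the small subunit, which decodes mRNA. The symbols do not follow the structure throughout. MRPS18A and MRPS30 sit in the large subunit, and MRPS36 is now known as a component of the 2-oxoglutarate dehydrogenase complex. In other studies, promoters of nuclear genes for mitochondria were often bound by the transcription factors NRF-1, GABP (an ETS factor) and YY1.

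The promoters are shown because they are a feature of the family that its symbols did not choose. RefSeq (GRCh38.p14) gave a window of 250 bases before and 50 from the start for 69 of the 78 genes. The windows were searched on both strands for CCGGAAG, a core of the ETS and GABP motif, for AANATGGCG, a YY1-type motif, and for GCGCA and GCGC with any 1 base between them, an NRF-1-type motif. CCGGAAG was in 29 of 69 windows (42.0%), against 16.7% of the 12797 genes of the table with a window, 21.4% of the tested genes and 34.3% of those of cytosolic ribosomal proteins. It was in 40.5% of the MRPL and 44.4% of the MRPS windows. AANATGGCG was in 18 of 69 (26.1%), against 5.77% of all windows, 7.83% of those of tested genes and 13.4% of those of cytosolic ribosomal proteins. Its ATG can be the start codon of a short-leader mRNA, so that a match may be coding sequence. The NRF-1-type motif was in 8 (11.6%), against 10.1% of all windows and 13.1% of those of tested genes. At least 1 of CCGGAAG and AANATGGCG was in 43 windows, and both were in 4. The run of pyrimidines at the start (C and then 4 pyrimidines), a mark of mRNAs regulated through their 5′ end by mTOR, was in 5 of 69 (7.25%), against 65.7% for cytosolic ribosomal proteins and 5.02% of all. These are matches of letters, not sites of binding. The windows below run from 40 bases before to 30 bases from the RefSeq start and belong to members that the results name. Capitals mark CCGGAAG or its complement in MRPL27, MRPS26, MRPS31 and MRPS12, AANATGGCG in MRPS30 and MRPL42, and the pyrimidine start in MRPS27; the MRPL24 stretch holds none of them.

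MRPL27 (chr17:50373155-50373224, minus strand): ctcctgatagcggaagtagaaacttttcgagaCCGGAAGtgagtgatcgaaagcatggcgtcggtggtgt
MRPS26 (chr20:3046012-3046081, plus strand): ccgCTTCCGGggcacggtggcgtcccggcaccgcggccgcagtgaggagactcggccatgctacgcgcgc
MRPL24 (chr1:156741059-156741128, minus strand): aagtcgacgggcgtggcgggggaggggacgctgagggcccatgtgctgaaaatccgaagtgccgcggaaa
MRPS30 (chr5:44808907-44808976, plus strand): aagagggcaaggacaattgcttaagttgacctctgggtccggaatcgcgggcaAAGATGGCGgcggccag
MRPS31 (chr13:40771161-40771230, minus strand): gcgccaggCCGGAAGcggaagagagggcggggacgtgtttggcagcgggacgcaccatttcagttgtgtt
MRPL42 (chr12:93467474-93467543, plus strand): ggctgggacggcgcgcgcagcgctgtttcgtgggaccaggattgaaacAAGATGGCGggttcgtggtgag
MRPS27 (chr5:72320211-72320280, minus strand): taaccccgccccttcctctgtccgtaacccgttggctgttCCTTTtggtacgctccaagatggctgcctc
MRPS12 (chr19:38930904-38930973, plus strand): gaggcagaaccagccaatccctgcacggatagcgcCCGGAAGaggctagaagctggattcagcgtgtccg

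The mRNAs of the 78 genes together took 1.07 to 1.68% of a library. Their sum was 14065 ± 728 TPM in siEIF3Gs polysomal, 15798 ± 1310 in siCtrl polysomal, 12054 ± 1650 in siEIF3Gs input and 13921 ± 2110 TPM in siCtrl input RNA (SD, n = 3 each). The groups of siEIF3Gs and siCtrl libraries overlapped in both fractions. Mean levels over the 12 libraries ran from 4.26 TPM for MRPL42 to 1935 TPM for MRPL41. The highest MRPL mRNAs were MRPL41, a protein specific to mitochondria, MRPL12 (892.5 TPM), the stalk protein that also binds the mitochondrial RNA polymerase, and MRPL28 (755.2 TPM). The highest MRPS mRNAs were MRPS24 (834.7 TPM), the counterpart of bacterial S3, MRPS12 (806.1 TPM), a protein of the decoding site, and MRPS34 (308.5 TPM). At the low end stood MRPL42, MRPL19 (5.62 TPM) and MRPL50 (10.0 TPM), and MRPS31 (10.3 TPM), MRPS33 (11.3 TPM) and MRPS17 (12.4 TPM).

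**Figure D1:**
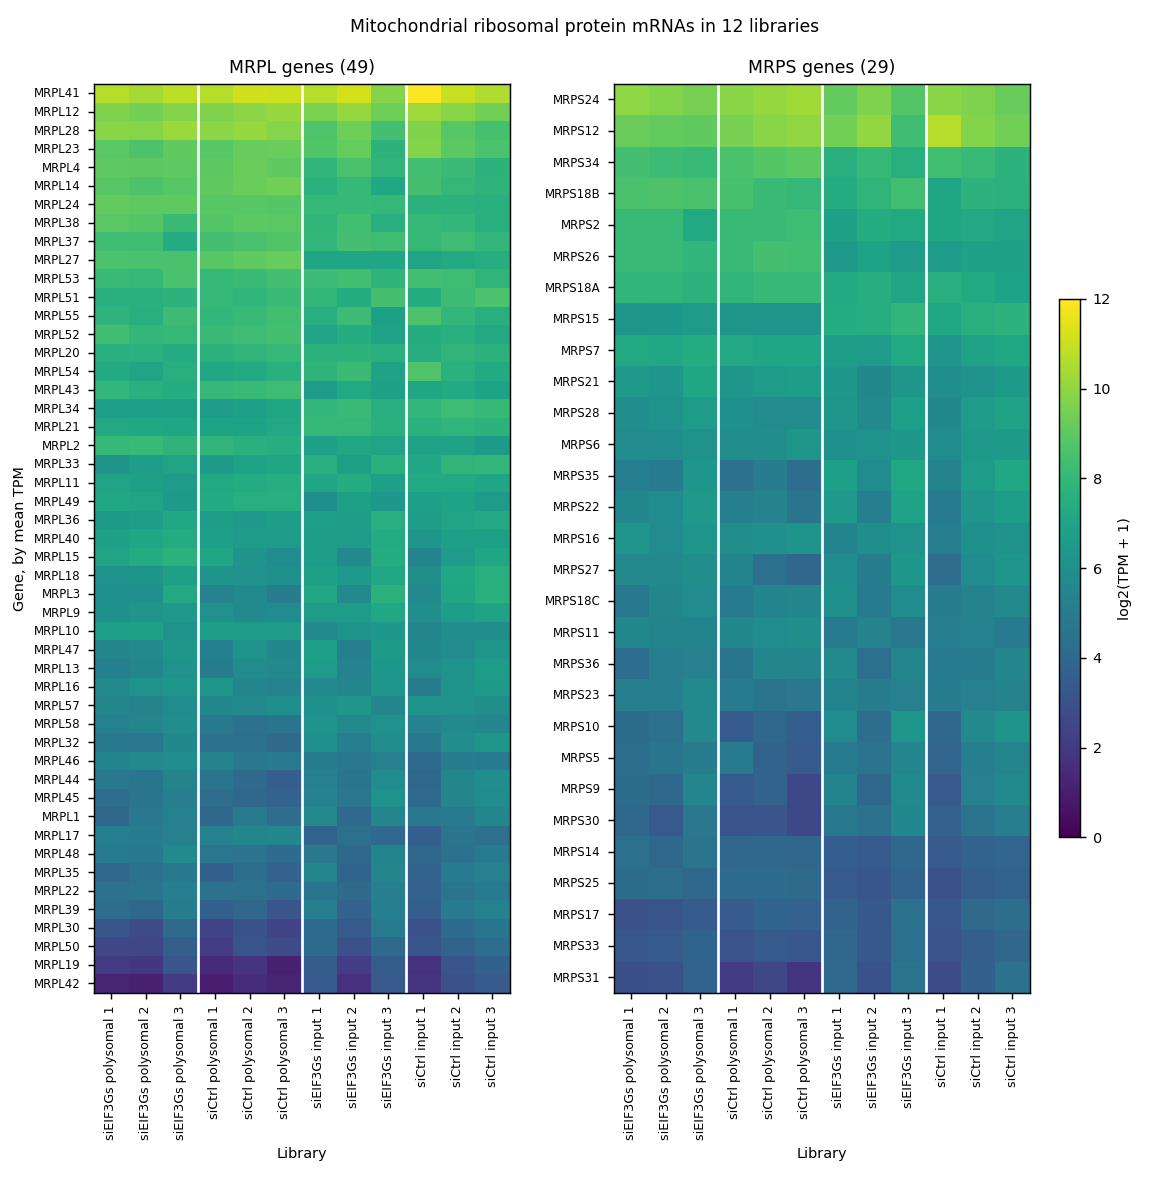
Level of each member, as log2(TPM + 1) by colour, in the 12 libraries (columns, 4 groups of 3 between white lines); MRPL genes are on the left and MRPS genes on the right, each from the highest to the lowest mean TPM. The order of genes is alike across libraries, from MRPL41 at a mean of 1935 TPM to MRPL42 at 4.26 TPM.

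Large-subunit mRNAs were the more abundant class in every library. The median over the 49 MRPL genes was 76.1 to 122.9 TPM and that over the 29 MRPS genes 34.3 to 81.3 TPM, and the ratio of the medians ranged from 1.46 to 2.39. By group, this ratio was 2.04 ± 0.348 in siEIF3Gs polysomal, 2.27 ± 0.0839 in siCtrl polysomal, 1.84 ± 0.488 in siEIF3Gs input and 1.91 ± 0.331 in siCtrl input RNA (SD, n = 3 each). For this ratio the groups overlapped in both knockdown comparisons. The medians themselves did not overlap in polysomal RNA, where all were higher after siEIF3Gs. For MRPL they were 108.5, 106.7 and 111.8 TPM after siEIF3Gs, against 99.98, 97.07 and 99.2 TPM after siCtrl. For MRPS they were 47.3, 48.89 and 68.03 TPM, against 42.25, 43.56 and 44.61 TPM. The median of all tested genes was also higher, with 7.03, 7.14 and 9.58 TPM against 5.9, 6.12 and 4.17 TPM. MRPS18A, a large-subunit protein by structure, averaged 198.3 TPM, MRPS30 19.9 TPM and MRPS36 35.5 TPM. MRPL45, which lies at the exit of the peptide tunnel, averaged 31.0 TPM.

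**Figure D2:**
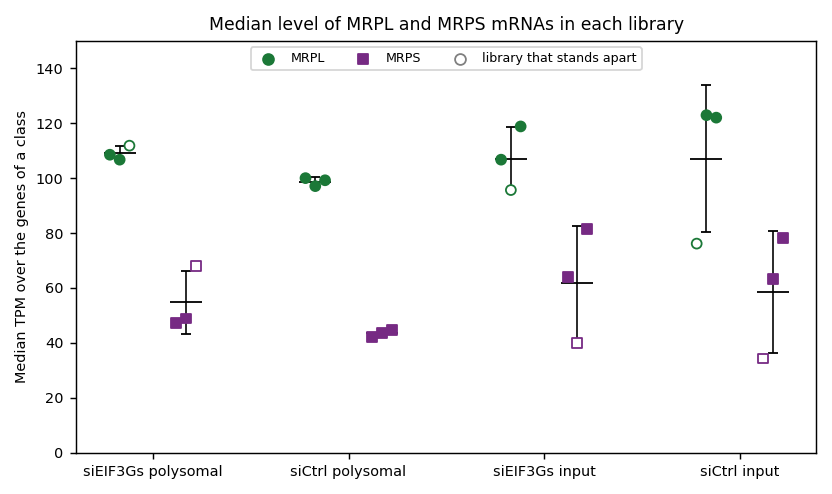
Median TPM over the 49 MRPL genes (circles) and over the 29 MRPS genes (squares) in each library, by group; lines are group means, bars are SD (n = 3), and open symbols are the 3 libraries nearer to the other fraction. MRPL medians lie at 76.1 to 122.9 TPM and MRPS medians at 34.3 to 81.3 TPM, with the MRPL median above the MRPS median of the same library in all 12.

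The comparison of polysomal with input RNA asks which mRNAs take a larger share of the polysomal library than of the lysate. It was made in siEIF3Gs cells and in siCtrl cells, which share no library. In siEIF3Gs cells 6 members and in siCtrl cells 16 took a larger share of the polysomal library, led in both by MRPL27 and MRPS26. In siEIF3Gs cells 2 and in siCtrl cells 9 took a smaller share, among them MRPS15 and MRPL34 in both. All values are log2 differences on the log2(TPM + 1) scale, polysomal minus input.

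TPM are shares, and the median of all 10605 tested genes was itself shifted, by -0.49 in siEIF3Gs cells and by -0.96 in siCtrl cells. With quantile normalization these medians were -0.06 and -0.13, and with median-of-ratios size factors 0.01 and -0.04. Differences are therefore also given minus the median of all genes ("relative").

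In siEIF3Gs cells 6 members rose in polysomal over input RNA, where 1.81% of all tested genes did (limma with Benjamini-Hochberg adjustment over all genes, adjusted p under 0.05), and 2 fell (1.33% of all genes). In siCtrl cells 16 rose (7.98% of all genes) and 9 fell (28.9% of all genes). In either direction, 3.14% of all genes were called in siEIF3Gs cells and 36.9% in siCtrl cells. As shares of the members, these were 7.69% and 2.56% in siEIF3Gs cells and 20.5% and 11.5% in siCtrl cells. All 8 members called in siEIF3Gs cells were among the 25 called in siCtrl cells. Of all tested genes, 329 of the 333 called in siEIF3Gs cells were also called in siCtrl cells. Without the 3 libraries that stand apart, 20 rose and 30 fell in siEIF3Gs cells (16.4% and 54.8% of all genes), and 18 rose and 28 fell in siCtrl cells (13.3% and 61.8%). The 8 and the 25 were all called there too. With size factors no member was called in siEIF3Gs cells, and 36 rose and 0 fell in siCtrl cells, where the differences of MRPL21 (0.46) and MRPL58 (0.29) were positive instead of negative. With quantile normalization 3 rose and 3 fell in siEIF3Gs cells, and 13 rose and 7 fell in siCtrl cells.

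The calls depend on single libraries. Shares of all genes called were not set beside the counts below, nor beside those with size factors and quantile normalization. Such changes of the counts are therefore not read as particular to the family. In siEIF3Gs cells the count of 8 became 1 without siEIF3Gs polysomal 1, 3 without siEIF3Gs polysomal 2 or siEIF3Gs input 1, 4 without siEIF3Gs input 3 and 5 without siCtrl polysomal 2. In siCtrl cells the count of 25 became 41 when siCtrl input 1 was left out, 3 when siCtrl input 2 was, and 4 when siCtrl input 3 was. Leaving out siCtrl polysomal 1, 2 and 3 in turn gave 6, 4 and 5, and leaving out siEIF3Gs polysomal 1 gave 13.

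The family's median was -0.15 in siEIF3Gs cells (relative 0.35) and -0.12 in siCtrl cells (relative 0.85). Above the median of all genes were 61 of 78 members in siEIF3Gs cells and 62 in siCtrl cells. Without siEIF3Gs input 2 the relative median in siEIF3Gs cells was 0.68. The position above all genes was lost under quantile normalization, where 35 and 40 of 78 were above it and the relative medians were -0.08 and 0.02. Groups of libraries did not overlap, with polysomal higher, for 17 members in siEIF3Gs cells (9.40% of all genes) and 22 in siCtrl cells (16.9%). They did not overlap with polysomal lower for 4 (12.7%) and 15 (28.9%). For 67 of 78 members (85.9%) the difference had the same sign in both cell states, against 92.3% of all tested genes, and Spearman's rho across the 78 genes was 0.911, against 0.88 across all genes. Genes are not independent replicates, and no p is given.

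**Figure D3:**
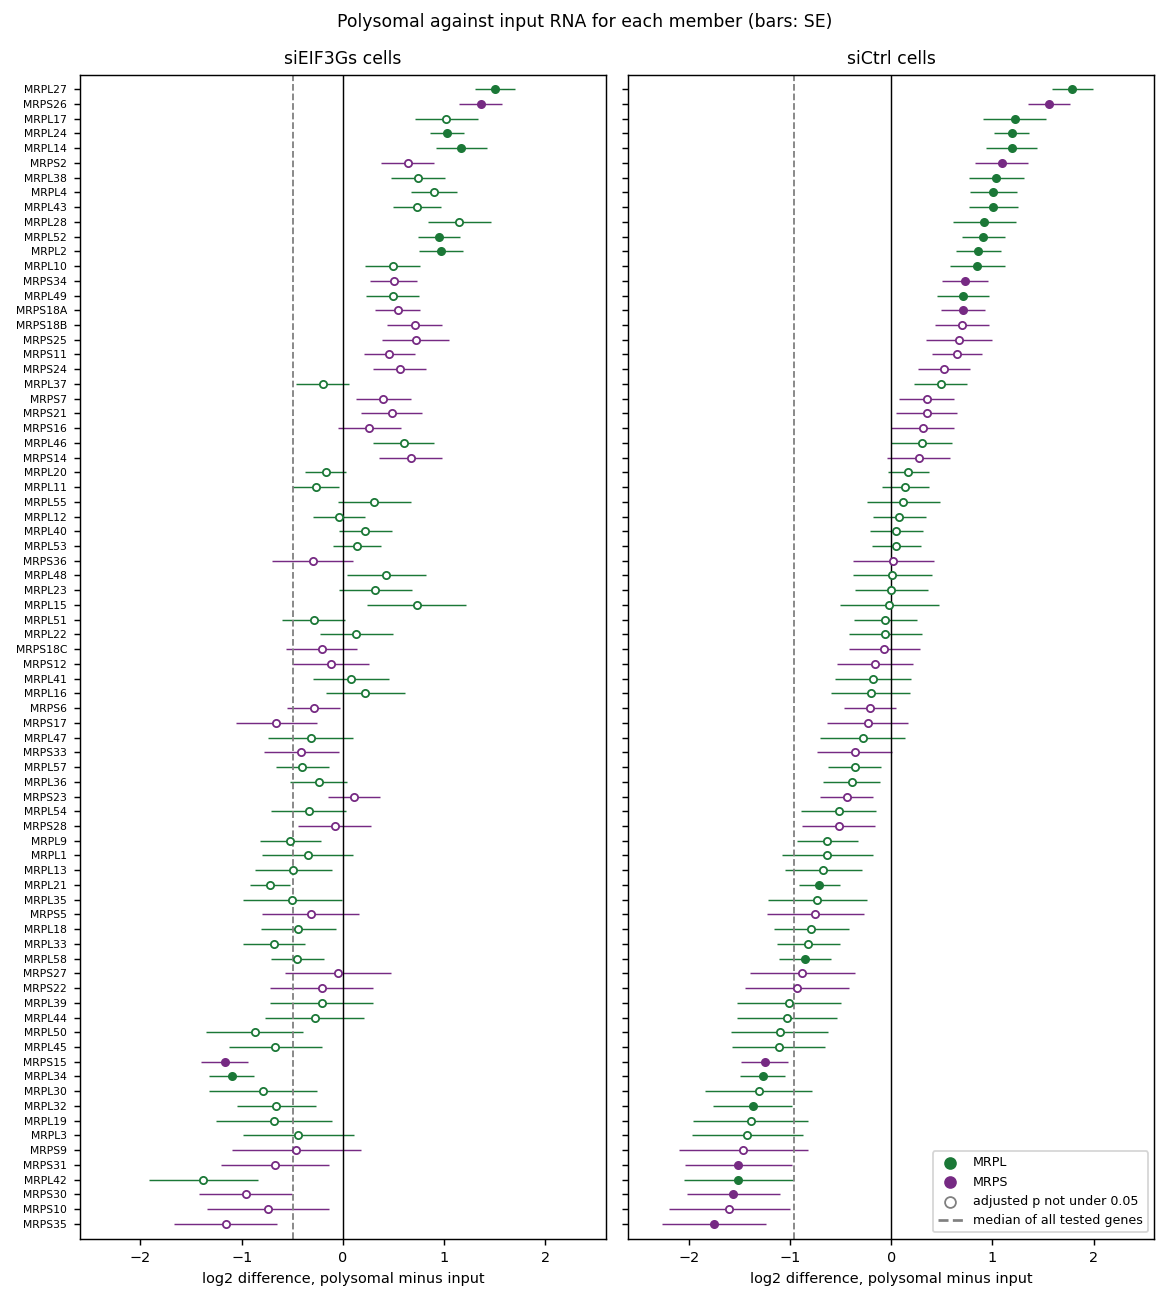
Log2 difference of polysomal minus input RNA for each of the 78 members in siEIF3Gs cells (left) and siCtrl cells (right), ordered by the siCtrl value; bars are SE, filled points have an adjusted p under 0.05 (limma), solid lines mark 0 and dashed lines the median of all tested genes (-0.49 and -0.96). MRPL27 and MRPS26 are at the top in both panels, and most members lie right of the dashed lines.

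MRPL27, the counterpart of bacterial L27 near the peptidyl transferase centre, had 390.6, 369.1 and 376.5 TPM in siEIF3Gs polysomal RNA, against 132.3, 133.7 and 134.9 TPM in siEIF3Gs input RNA. It had 467.0, 529.8 and 591.6 TPM in siCtrl polysomal and 126.4, 156.3 and 175.9 TPM in siCtrl input RNA. Every polysomal library was above every input library. The rise was 1.5 (SE 0.20, limma adjusted p = 0.00203, relative 1.99) in siEIF3Gs cells and 1.79 (SE 0.20, adjusted p = 0.000696, relative 2.76) in siCtrl cells. It stayed past the threshold in 24 of 24 alternatives in siCtrl cells and in 23 of 24 in siEIF3Gs cells, the exception being size factors (adjusted p = 0.0610, range over the alternatives 0.000312 to 0.0610).

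MRPS26, a small-subunit protein with no bacterial counterpart, had 282.8, 277.3 and 237.9 TPM in siEIF3Gs polysomal RNA, against 88.0, 122.7 and 99.7 TPM in siEIF3Gs input RNA. In siCtrl cells it had 281.3, 345.8 and 331.2 TPM in polysomal RNA and 93.8, 114.9 and 114.0 TPM in input RNA. The groups did not overlap in either cell state. It rose by 1.36 (SE 0.21, limma adjusted p = 0.00572, relative 1.86) in siEIF3Gs cells and by 1.56 (SE 0.21, adjusted p = 0.00177, relative 2.53) in siCtrl cells. The siEIF3Gs call was lost without siEIF3Gs polysomal 1 (adjusted p = 0.0510), with size factors (0.0711) and with only the groups compared (0.0511).

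MRPL24, the counterpart of bacterial L24 near the tunnel exit, had 553.9, 515.3 and 513.5 TPM in siEIF3Gs polysomal RNA, against 260.9, 259.4 and 252.1 TPM in siEIF3Gs input RNA. In siCtrl cells the values were 473.9, 477.7 and 456.1 TPM in polysomal RNA and 210.8, 209.2 and 194.2 TPM in input RNA. It rose by 1.03 (SE 0.17, limma adjusted p = 0.00847, relative 1.52) in siEIF3Gs cells and by 1.19 (SE 0.17, adjusted p = 0.00239, relative 2.16) in siCtrl cells. The siCtrl call stood in 24 of 24 alternatives. The siEIF3Gs call was lost without siEIF3Gs polysomal 1 (adjusted p = 0.0695) and in 3 alternatives with all libraries, size factors (0.102), no trend (0.0539) and only the groups compared (0.0796). Its gene overlaps HDGF in RefSeq, and the strand setting of the counting is not given in the sources used here, so reads of the overlap cannot be told apart.

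MRPL14, which faces the small subunit and binds an assembly factor before the subunits join, had 466.6, 402.3 and 467.2 TPM in siEIF3Gs polysomal RNA, against 198.7, 260.0 and 146.4 TPM in siEIF3Gs input RNA. It had 536.1, 641.4 and 690.2 TPM in siCtrl polysomal and 350.0, 250.7 and 224.6 TPM in siCtrl input RNA. Polysomal libraries lay above input libraries in both states. The rises were 1.17 (SE 0.25, limma adjusted p = 0.0253) and 1.19 (SE 0.25, adjusted p = 0.0150). The siEIF3Gs call was lost without siEIF3Gs polysomal 1 (adjusted p = 0.134) or 2 (0.0853), siEIF3Gs input 1 (0.106) or 3 (0.0839) or siCtrl polysomal 2 (0.0553). That call was also lost with size factors (0.117), quantile normalization (0.0567), no trend (0.0746) and only the groups compared (0.0769). Scaling to the total without cytosolic ribosomal protein genes lost it too (0.0691). The siCtrl call was lost without siCtrl input 2 (0.0719) or 3 (0.0722), or siCtrl polysomal 2 (0.0652) or 3 (0.0625). It overlaps TMEM63B and has a named pseudogene, so its reads may be shared.

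MRPL17, the counterpart of bacterial L17, had 34.9, 31.9 and 35.9 TPM in siEIF3Gs polysomal and 13.4, 20.3 and 16.1 TPM in siEIF3Gs input RNA, a difference of 1.02 (limma adjusted p = 0.0993). It rose by 1.22 in siCtrl cells (SE 0.31, adjusted p = 0.0264, relative 2.19), with 37.4, 44.7 and 45.3 TPM in polysomal and 11.2, 23.2 and 20.7 TPM in input RNA. The groups did not overlap in either state. The siCtrl call was lost without siCtrl input 2 or 3 or any siCtrl polysomal library (adjusted p = 0.0629, 0.0749, 0.0663, 0.0687 and 0.0962). That call was also lost with only the groups compared (0.0633). MRPL2, whose bacterial counterpart L2 is needed for peptide bond formation, and MRPL52 complete the 6 rises in siEIF3Gs cells and are named after their values were seen. MRPL2 rose by 0.97 (adjusted p = 0.0309) and MRPL52 by 0.95 (adjusted p = 0.0314) in siEIF3Gs cells, and 13 and 12 of 24 alternatives kept these calls.

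MRPS15 and MRPL34 fell in both cell states in deposited TPM, though close to the median of all genes in siCtrl cells (relative -0.28 and -0.30). MRPS15, an rRNA-binding small-subunit protein, had 78.0, 82.0 and 97.4 TPM in siEIF3Gs polysomal RNA, against 172.3, 178.5 and 234.0 TPM in siEIF3Gs input RNA. Its siCtrl values were 79.4, 75.8 and 74.5 TPM in polysomal RNA and 147.7, 191.4 and 217.1 TPM in input RNA, again without overlap. It fell by 1.17 in siEIF3Gs cells (SE 0.23, limma adjusted p = 0.0173, relative -0.67) and fell by 1.25 in siCtrl cells (SE 0.23, adjusted p = 0.00874). The siEIF3Gs call was lost without siEIF3Gs input 1 (adjusted p = 0.0597) or 3 (0.0623), or siEIF3Gs polysomal 1 (0.115) or 2 (0.0853). That call was also lost with size factors (0.398), no trend (0.057) and only the groups compared (0.0796).

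MRPL34, a small basic large-subunit protein, had 108.5, 106.7 and 111.8 TPM in siEIF3Gs polysomal RNA, against 243.9, 274.9 and 191.4 TPM in siEIF3Gs input RNA. Its siCtrl values were 98.5, 107.8 and 134.1 TPM in polysomal RNA and 245.7, 312.8 and 261.3 TPM in input RNA. Polysomal libraries were below input libraries in both states. It fell by 1.10 in siEIF3Gs cells (SE 0.22, limma adjusted p = 0.0194, relative -0.60) and fell by 1.27 in siCtrl cells (SE 0.22, adjusted p = 0.00722). The siEIF3Gs call was lost without siEIF3Gs input 1 (adjusted p = 0.0981) or siEIF3Gs polysomal 1 (0.110) or 2 (0.0889). That call was also lost with size factors (0.546), no trend (0.0685) and only the groups compared (0.0873). MRPL34 overlaps ABHD8. With size factors the siCtrl differences of MRPS15 and MRPL34 were -0.08 and -0.10 (adjusted p = 0.871 and 0.876).

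Of the 9 members that fell in siCtrl cells, MRPS35, MRPS30, MRPS31 and MRPL42 lay furthest below all genes, and none of them was called in siEIF3Gs cells. MRPS35, specific to the mitochondrial small subunit, had 34.8, 28.5 and 79.3 TPM in siEIF3Gs polysomal and 109.0, 57.0 and 147.8 TPM in siEIF3Gs input RNA, which overlap. The highest of these polysomal values came from siEIF3Gs polysomal 3, which stands apart. In siCtrl cells it had 21.7, 33.1 and 19.4 TPM in polysomal RNA, against 39.9, 97.0 and 147.5 TPM in input RNA, and fell by 1.75 (SE 0.51, limma adjusted p = 0.0357, relative -0.78).

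MRPS30 had 7.51, 8.03 and 5.03 TPM in siCtrl polysomal RNA, against 12.7, 23.4 and 34.4 TPM in siCtrl input RNA, and fell by 1.56 (SE 0.46, limma adjusted p = 0.0363, relative -0.59). MRPS31 fell by 1.51 (SE 0.53, adjusted p = 0.0448), with 3.27, 4.83 and 2.58 TPM in siCtrl polysomal and 5.66, 12.5 and 22.2 TPM in siCtrl input RNA. MRPL42 fell by 1.51 (SE 0.54, adjusted p = 0.0465), with 0.95, 1.92 and 1.40 TPM in siCtrl polysomal and 2.65, 6.87 and 10.0 TPM in siCtrl input RNA. No siCtrl polysomal value of these genes reached an input value. The calls were lost without any 1 of siCtrl input 2, siCtrl input 3, siCtrl polysomal 1, 2 or 3 or siEIF3Gs polysomal 1 in turn, MRPS35 included. The adjusted p then ranged up to 0.154 for MRPS35, 0.156 for MRPS30, 0.193 for MRPS31 and 0.191 for MRPL42. MRPS31 and MRPL42 were also lost without siEIF3Gs input 1 (0.0540 and 0.0517), siEIF3Gs input 3 (0.0503 and 0.0537) or siEIF3Gs polysomal 2 (0.0573 and 0.0592), and MRPL42 without siEIF3Gs polysomal 3 (0.0501). They were lost as well with the replicate block (0.0521 and 0.0548), and with quantile normalization (0.256 and 0.338), as was MRPS30 (0.0912). A pseudocount of 5 lost MRPS30, MRPS31 and MRPL42 (0.0521, 0.0593 and 0.0586). Without a filter and with only the groups compared none of the 4 was called. Without the 3 libraries that stand apart, the siCtrl adjusted p was 1.98e-05 for MRPS35 and 0.00014 for MRPS30. With size factors none of the 4 was called, and their differences were -0.60, -0.48, -0.50 and -0.64.

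**Figure D4:**
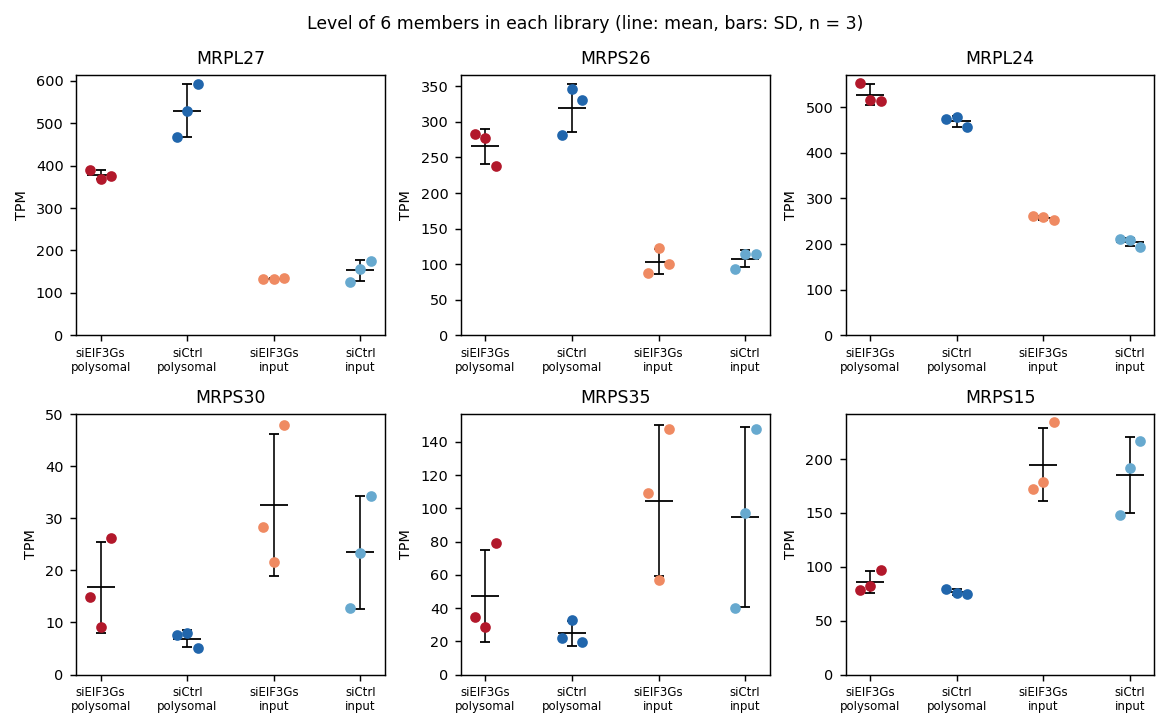
TPM of 6 members in each library by group (points), with the group mean (line) and SD (bars, n = 3); each panel has its own axis from 0. Polysomal values of MRPL27, MRPS26 and MRPL24 lie above all input values, those of MRPS15 lie below, and those of MRPS30 and MRPS35 overlap input values in siEIF3Gs cells but not in siCtrl cells.

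The list used for the central protuberance, a ridge on top of the large subunit, may not be complete. It held MRPL18, MRPL27, MRPL38, MRPL40, MRPL46, MRPL48, MRPL49 and MRPL52. All 8 were above the median of all genes in both cell states, with a median relative difference of 1.04 in siEIF3Gs cells and 1.47 in siCtrl cells. MRPL27 and MRPL52 were called higher in siEIF3Gs cells and MRPL27, MRPL38, MRPL49 and MRPL52 in siCtrl cells. MRPL49 passed narrowly there (0.71, SE 0.26, limma adjusted p = 0.0499) and in 7 of 24 alternatives. All 5 stalk proteins (MRPL10, MRPL11, MRPL12, MRPL53 and MRPL54), which recruit translation factors, were above the median of all genes as well, with median relative differences of 0.45 and 1.04, and MRPL10 was called higher in siCtrl cells. Of 7 proteins around the exit tunnel, 6 were above it in siEIF3Gs cells and 4 in siCtrl cells, and MRPL24 was called in both. These counts are for deposited TPM. With quantile normalization MRPL18 (relative -0.76), MRPL12 (-0.05), MRPL53 (-0.03) and MRPL54 (-0.44) lay below the median of all genes in siCtrl cells. The other central protuberance and stalk proteins stayed above it in siCtrl cells. In siEIF3Gs cells with quantile normalization, MRPL18 (relative -0.56), MRPL11 (-0.37) and MRPL12 (-0.29) were among those below it. These lists are short, and nothing is read from them beyond these counts.

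By symbol, 5 of 49 MRPL and 1 of 29 MRPS members rose in siEIF3Gs cells (1.81% of all genes), and 1 of each class fell (1.33%). In siCtrl cells 12 MRPL and 4 MRPS members rose (7.98% of all genes), and 5 MRPL and 4 MRPS members fell (28.9%). The median relative difference was 0.29 for MRPL and 0.41 for MRPS in siEIF3Gs cells, and 0.90 and 0.80 in siCtrl cells. MRPL minus MRPS was -0.12 and 0.10. The MRPL median minus the MRPS median had a pooled SD of 0.255 between replicate libraries. That SD is of single libraries, so it does not measure the error of a difference between group means. The sign of MRPL minus MRPS turned in some alternatives, so no direction is given. It was 0.24 in siEIF3Gs cells without the 3 libraries and -0.40 in siCtrl cells with quantile normalization. Counted by structure, with MRPS18A and MRPS30 in the large subunit and MRPS36 left out, the values were -0.14 and 0.12. Proteins shared with bacteria and proteins specific to mitochondria had like medians in siEIF3Gs cells, 0.29 for both large-subunit classes and 0.39 and 0.52 in the small subunit. In siCtrl cells these were 0.83 and 0.90 in the large and 0.85 and 0.56 in the small subunit.

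In deposited TPM the difference between fractions was larger for abundant members. Whether this holds with quantile normalization, where the family lost its position above all genes, was not tested. To keep libraries apart, the siEIF3Gs difference was set beside the level in siCtrl input RNA, and the siCtrl difference beside the level in siEIF3Gs input RNA. Spearman's rho across the 78 genes was 0.324 for the siEIF3Gs difference, against 0.205 across all tested genes, and 0.390 for the siCtrl difference, against 0.214. The 26 highest members had a median relative difference of 0.72 in siEIF3Gs cells, the middle 26 had 0.43 and the lowest 26 had 0.16. In siCtrl cells these medians were 1.12, 0.72 and 0.29. The pseudocount of 1 pulls the differences of low genes towards 0. Without the 3 libraries that stand apart, rho was 0.494 and 0.493. This is a description across genes of the same libraries.

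The next comparison, siEIF3Gs against siCtrl in polysomal RNA, asks how loss of EIF3G altered the polysomal share of these mRNAs. No member was called in limma at an adjusted p under 0.05, where 0.0189% of all genes were (0.0189% in each direction without the 3 libraries), and 8 of 78 (10.3%) had an unadjusted p under 0.05, against 6.69% of all genes. The median of all genes was 0.33 (siEIF3Gs minus siCtrl) and that of the members 0.13, a relative median of -0.21 with 29 of 78 members above the median of all genes. It was -0.23 for MRPL and -0.19 for MRPS. The relative median was -0.08 without siCtrl polysomal 3, -0.33 without siCtrl polysomal 1 and -0.02 with quantile normalization, and -0.21 without the 3 libraries that stand apart. Non-overlapping groups with siEIF3Gs higher were seen for 20 members (25.6%, against 21.6% of all genes), and with siEIF3Gs lower for 11 (14.1%, against 7.61%), 9 MRPL and 2 MRPS.

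MRPL58, a peptidyl-tRNA hydrolase built into the large subunit that can release stalled peptides, had 37.1, 43.0 and 57.2 TPM in siEIF3Gs polysomal RNA, against 27.6, 22.1 and 24.3 TPM in siCtrl polysomal RNA. In input RNA it had 68.7, 51.8 and 66.2 TPM after siEIF3Gs and 39.1, 49.0 and 47.8 TPM after siCtrl. All siEIF3Gs libraries lay above all siCtrl libraries in both fractions. The differences were 0.85 in polysomal RNA (SE 0.26, limma adjusted p = 0.650) and 0.45 in input RNA (SE 0.26, adjusted p = 1.0), and neither passed the threshold in any alternative run.

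MRPL11 forms the base of the stalk. It had 126.2, 111.4 and 97.8 TPM in siEIF3Gs polysomal RNA, against 153.6, 165.0 and 175.9 TPM in siCtrl polysomal RNA, a difference of -0.56 (SE 0.23, limma adjusted p = 0.650). MRPS34, specific to the mitochondrial small subunit, had 338.5, 296.2 and 269.2 TPM, against 370.8, 462.5 and 506.1 TPM (-0.56, SE 0.23, adjusted p = 0.650). MRPL27 differed by -0.48 (SE 0.20, adjusted p = 0.650), with the polysomal values given above. For these 3 genes every siEIF3Gs polysomal value was below every siCtrl polysomal value. MRPS34 overlaps EME2. With quantile normalization the differences of MRPL11, MRPS34 and MRPL27 were -0.55, -0.45 and -0.34. The 5 stalk proteins were all below the median of all genes (relative median -0.43).

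The widest positive differences in polysomal RNA were those of MRPS9 (1.29, SE 0.64), a small-subunit protein shared with bacteria, and MRPS27 (1.14, SE 0.52), which belongs to the pentatricopeptide repeat proteins; both are named after their values were seen. MRPS9 had 17.8, 15.5 and 44.2 TPM in siEIF3Gs polysomal, against 10.3, 13.3 and 5.04 TPM in siCtrl polysomal RNA. MRPS27 had 48.8, 48.9 and 59.6 TPM, against 42.3, 19.6 and 14.8 TPM. The groups did not overlap, but the limma adjusted p was 0.650 for both. The highest MRPS9 value came from siEIF3Gs polysomal 3, which stands apart, and without the 3 such libraries the difference of MRPS9 was 0.83 (adjusted p = 0.317) and that of MRPS27 1.05 (adjusted p = 0.272).

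In input RNA, where the comparison reads mRNA levels in the lysate, no member was called for siEIF3Gs against siCtrl (0.0189% of all genes), and 0 of 78 had an unadjusted p under 0.05 (1.36% of all genes). No member was called without the 3 libraries either, where 0.00943% of all genes rose and 0.0377% fell. The median of the members was 0.02 and that of all genes -0.05, so the relative median was 0.08, with 0.06 for MRPL and 0.13 for MRPS. It was -0.06 without siCtrl input 3, -0.03 without siEIF3Gs input 2, 0.02 without siCtrl input 2 and 0.18 without siCtrl input 1. Groups did not overlap with siEIF3Gs higher for MRPL24 and MRPL58 (2.56%, against 1.88% of all genes), and for 0 members with siEIF3Gs lower (1.80% of all genes). MRPL24 had 260.9, 259.4 and 252.1 TPM after siEIF3Gs and 210.8, 209.2 and 194.2 TPM after siCtrl, a difference of 0.33 (SE 0.17, limma adjusted p = 1.0).

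Of the 4 members with the smallest p in this comparison, MRPL24 and MRPL58 had positive and MRPL14 and MRPS12 negative differences. MRPS12 had 695.8, 1046 and 321.5 TPM in siEIF3Gs input RNA, against 1614, 882.6 and 705.1 TPM in siCtrl input RNA (-0.70, SE 0.38, limma adjusted p = 1.0). MRPL14 differed by -0.46 (SE 0.25, adjusted p = 1.0). The groups overlapped for both. The highest value of each came from siCtrl input 1, which stands apart. Relative to all genes the differences were -0.65 for MRPS12 and -0.41 for MRPL14. Without siCtrl input 1 alone these were 0.04 and 0.12, and without all 3 libraries that stand apart -0.53 and -0.27.

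The interaction, the polysomal effect of siEIF3Gs minus its input effect, asks whether the polysomal share changed beyond the mRNA level. No member was called (0.0% of all genes), and 0 of 78 had an unadjusted p under 0.05 (0.179% of all genes). The relative median was -0.25, with -0.21 for MRPL and -0.34 for MRPS, and 22 of 78 members were above the median of all genes, which was 0.38. Leaving out a library gave relative medians of -0.56 (without siCtrl input 1) to -0.06 (without siCtrl input 3), with -0.09 without siEIF3Gs input 2 and -0.14 without siCtrl polysomal 3. It was -0.33 without the 3 libraries that stand apart and -0.02 with quantile normalization. For comparison, the relative median of 84 tested cytosolic ribosomal protein genes was -0.55, with 3 of 84 above the median of all genes.

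The members with the smallest p in the interaction were MRPL37, MRPS23, MRPL11 and MRPL32. MRPL37, specific to the mitochondrial large subunit, had an interaction of -0.70 (SE 0.37, limma adjusted p = 0.908). It had 316.1, 322.5 and 170.4 TPM in siEIF3Gs polysomal RNA, against 346.9, 380.7 and 426.8 TPM in siCtrl polysomal RNA. In input RNA it had 244.3, 353.1 and 307.3 TPM after siEIF3Gs and 264.3, 307.1 and 248.3 TPM after siCtrl. The lowest value is that of siEIF3Gs polysomal 3, which stands apart, and without the 3 such libraries the interaction was -0.25 (adjusted p = 0.683). The others were 0.55 for MRPS23 (SE 0.36; -0.01 with size factors), -0.41 for MRPL11 (SE 0.32) and 0.71 for MRPL32 (SE 0.55), which is matured by the m-AAA protease of the inner membrane, each with an adjusted p of 0.908.

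**Figure D5:**
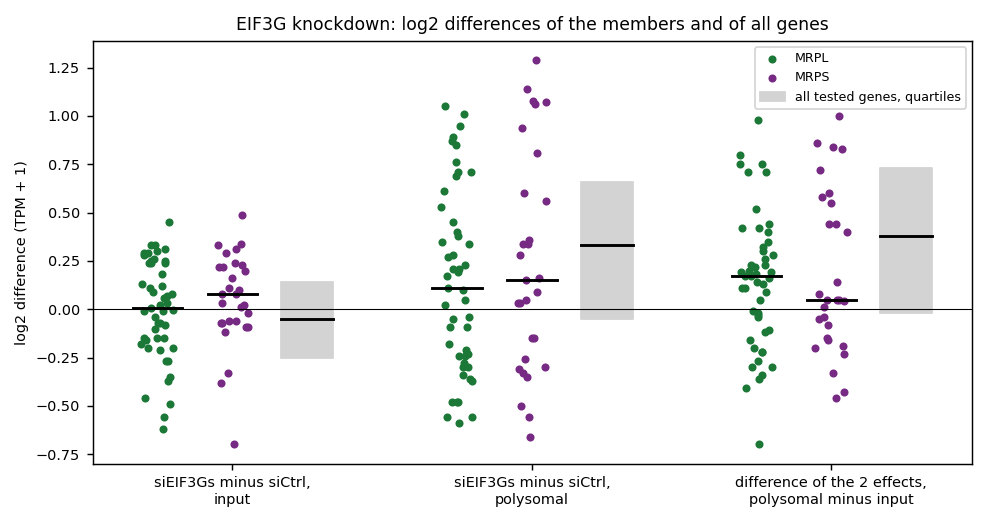
Log2 differences of each MRPL gene (green) and MRPS gene (purple) for siEIF3Gs minus siCtrl in input RNA, in polysomal RNA and for the difference of the 2 effects; black lines are medians, and grey bars span the quartiles of all 10605 tested genes. In polysomal RNA the medians of MRPL (0.11) and MRPS (0.15) lie below that of all genes (0.33), and no member passed an adjusted p of 0.05 in any of these comparisons.

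The other genes of the mitochondrial translation system were read beside the family, in polysomal against input RNA. Of 28 factors that build the mitoribosome, 3 rose and 0 fell in siEIF3Gs cells (1.81% and 1.33% of all genes). In siCtrl cells 7 rose and 1 fell (7.98% and 28.9% of all genes). RCC1L, an exchange-factor-like assembly protein, averaged 248.9 ± 61.7 TPM in siEIF3Gs polysomal and 115.3 ± 21.6 TPM in siEIF3Gs input RNA, and 335.6 ± 3.98 TPM in siCtrl polysomal and 122.5 ± 19.6 TPM in siCtrl input RNA (SD, n = 3 each). It rose by 1.09 (limma adjusted p = 0.0318) in siEIF3Gs cells and by 1.46 (adjusted p = 0.00662) in siCtrl cells. MRM1, an rRNA methyltransferase, rose by 1.53 in siEIF3Gs cells (adjusted p = 0.0165), and RPUSD3, a pseudouridine synthase, by 1.07 in siCtrl cells (adjusted p = 0.0207).

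Of 17 mitochondrial translation factors, 2 rose and 0 fell in siEIF3Gs cells (1.81% and 1.33% of all genes). In siCtrl cells 2 rose and 8 fell (7.98% and 28.9% of all genes). The 2 that rose in both were TUFM, the elongation factor that delivers aminoacyl-tRNA, by 1.20 in siEIF3Gs and 1.16 in siCtrl cells (limma adjusted p = 0.0126 and 0.00970), and TACO1, an activator of translation of a respiratory subunit, by 0.98 in siEIF3Gs and 1.01 in siCtrl cells (adjusted p = 0.0450 and 0.0227). Relative to all genes, the median of these factors was -0.13 in siEIF3Gs cells and -0.42 in siCtrl cells, where that of the ribosomal proteins was 0.35 and 0.85. Of 19 genes of mitochondrial protein import, 0 rose and 2 fell in siEIF3Gs cells, and 1 rose and 5 fell in siCtrl cells, beside the same shares of all genes. TOMM5, a small subunit of the outer membrane translocase, fell in both states, with differences of -2.13 in siEIF3Gs and -2.10 in siCtrl cells (adjusted p = 0.000766 and 0.000727), and so did DNAJC19, with -1.74 in siEIF3Gs and -1.89 in siCtrl cells (adjusted p = 0.0218 and 0.0104). No gene of 10 for mitochondrial DNA upkeep and transcription was called in either state (3.14% of all genes in siEIF3Gs and 36.9% in siCtrl cells).

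Of 5 further mitoribosomal proteins with other symbols (DAP3, AURKAIP1, CHCHD1, PTCD3 and GADD45GIP1), 0 were called in siEIF3Gs cells (3.14% of all genes). PTCD3 fell in siCtrl cells (-1.75, SE 0.60, limma adjusted p = 0.0446), where 28.9% of all genes fell. Cytosolic ribosomal protein genes, which took 22.9 to 39.3% of a library, had 0 rises and 13 falls among 84 in siEIF3Gs cells (1.81% and 1.33% of all genes). In siCtrl cells they had 4 rises and 22 falls (7.98% and 28.9% of all genes). Their relative medians were 0.01 in siEIF3Gs and 0.61 in siCtrl cells. Differences between these lists were not tested.

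In RefSeq 18 members overlap another protein-coding gene and 41 of the 77 found there have a named pseudogene, so levels of these genes may include shared reads. The sources used here do not say how such reads were assigned beyond the use of RSEM. Fewer cells and less RNA per cell cannot be told apart in these bulk libraries, and a change of all mRNAs alike does not alter TPM.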

How the data were processed

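Gene expression was measured in 12 H1299 libraries, 4 groups of 3. The authors deposited TPM for each gene; the submitters' processing notes name RSEM 1.3.1 and GRCh38.p13. For aligner, annotation and filters the sources used here give nothing. Each library sums to 1000000 within 0.54, so depth is unknown.

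Values were tested as log2(TPM + 1), a scale that understates the change of low genes. The 10605 genes averaging 1 TPM or more over the 12 libraries were kept, and 5567 were set aside. limma 3.58.1 (R 4.3.3) fitted 1 mean per group (mean-variance trend, 8 residual degrees of freedom), with Benjamini-Hochberg adjustment over all tested genes in each of 5 comparisons and a threshold of 0.05. The fit was tested on simulated data with noise independent between genes and libraries, and with changes larger than most reported here. That simulation lacks differences shared across a whole library, so it cannot show how the tests behave under them. Tables were summarised with Python 3.11.15. No column of another series was present. There were 24 alternative settings of the fit. Among them were pseudocounts of 0.1 and 5, no filter or a minimum of 5 TPM, 3 other scalings, no trend and robust moderation. The rest were only the groups compared, a replicate block, the 3 libraries that stand apart left out, and each library left out. Membership by structure or with 5 more genes was varied apart from these 24.

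Members named were up to 4 per direction past the threshold in each comparison by size relative to all genes (or the 4 smallest p), the 3 highest and 3 lowest of each class, 6 fixed members, and the 2 smallest p of each other list. The members, lists and alternatives were chosen with earlier results of these data known. Promoters are RefSeq's (GRCh38.p14).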

Additional observations from a re-analysis of the deposited data

How the results depend on the processing

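The counts of calls in both knockdown comparisons and in the interaction were 0 under every alternative run. For polysomal against input RNA in siEIF3Gs cells, the relative median of 0.35 became 0.13 with a pseudocount of 5, 0.03 without a filter, -0.08 with quantile normalization and 0.74 without the 3 libraries, where MRPL minus MRPS was 0.24. Apart from the fit without the 3 libraries, shares of all genes called were not set beside the counts of calls in this section. The 8 calls became 0 with size factors, 2 without the trend, 1 with only the groups compared and 50 without the 3 libraries. In siCtrl cells the relative median of 0.85 became 1.08 with a pseudocount of 0.1, 0.40 with a pseudocount of 5, 0.20 without a filter, 0.55 with a minimum of 5 TPM, 1.08 with size factors, 0.02 with quantile normalization and 1.10 without the 3 libraries that stand apart. The 25 calls became 16 without a filter, 11 with only the groups compared and 46 without those libraries, and MRPL minus MRPS was -0.40 with quantile normalization. In polysomal RNA the knockdown median of -0.21 was 0.03 without a filter; the interaction median of -0.25 was -0.02 without a filter and -0.02 with quantile normalization, and its MRPL minus MRPS was -0.17 without the 3 libraries. Removing the filter adds genes near 0, whose differences are small by construction of the scale; the cause of the other changes was not tested.

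Leaving out each library gave 1 to 11 calls, relative medians of 0.29 to 0.68 (the highest without siEIF3Gs input 2) and MRPL minus MRPS of -0.19 to 0.20 in siEIF3Gs cells. In siCtrl cells it gave 3 to 41 calls, 0.58 to 1.10 and -0.11 to 0.18. The interaction gave -0.56 to -0.06 and -0.14 to 0.17, polysomal knockdown -0.33 to -0.08 and -0.20 to 0.02, and input knockdown -0.06 to 0.18 and -0.10 to 0.02. Among the members named by size or p in each comparison, the relative differences that changed sign were those of MRPL14 (0.12, range -0.85 to 0.12) and MRPS12 (0.04, range -1.27 to 0.04) in input RNA without siCtrl input 1. That of MRPS23 in the interaction was -0.19 without siCtrl input 1, -0.01 without siEIF3Gs input 3 (range -0.19 to 0.36) and -0.05 without the 3 libraries. The replicate numbers did not pair the libraries: 4 of 12 same-numbered pairs had a correlation of deviations over 0.1 (range -0.689 to 0.712). With the replicate block, 8 members were called in siEIF3Gs cells and 19 in siCtrl cells, and the relative medians stayed at 0.35 and 0.85.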
